A study of Mus musculus with 9 samples.

Results

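The genes described here carry naive T cells into lymph nodes and hold them there: the chemokine receptors Ccr7 and Cxcr4 and the integrin subunits Itgal, Itga4, Itgb2 and Itgb7. ATAC-seq, which reads open chromatin as the sites where a transposase can cut and tag DNA, was used to measure their accessibility. The members are the peaks that the deposited table assigns to one of these symbols, together with the peaks it calls intergenic that lie within 50 kb of the gene's transcript. This gave 148 of 115727 listed peaks for 6 of 16129 genes. The groups are Stat6_KO, Il21e_KO and WT, with 3 libraries each. In the submitters' labels all mice are C57BL/6 and the cells are naive CD4+ T cells, untreated, taken directly from the animal and purified with a kit, with no age given. Stat6_KO mice lack STAT6, the transcription factor that passes on the interleukin-4 signal. For Il21e_KO the labels also use the name IL21KO, and they do not say which DNA of the interleukin-21 locus is missing. They do not say either whether libraries of a group came from separate mice, so p-values measure only the spread between these samples.

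A naive T cell rolls on the vessel wall of a lymph node by L-selectin, and chemokine on that wall then signals through CCR7. This signal switches integrins into their binding form, and the cell arrests and crosses the wall. Itgal and Itgb2 encode the alpha and beta chains of LFA-1, which binds ICAM proteins on endothelium. Itga4 and Itgb7 encode the chains of the gut-homing integrin, which binds MAdCAM in Peyer's patches and mesenteric nodes. CXCR4, the receptor of CXCL12, acts beside CCR7 at this entry step and in marrow retention. Other leukocytes use several of these genes as well.

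The libraries held between 1049460 and 1802405 reads in listed peaks, and 1 read was worth between 0.555 and 0.953 CPM (reads in a peak scaled to a fixed total per library). The deletion in Stat6_KO was looked for at Stat6 itself. Its exon 12 peak held 5, 3 and 3 reads in the Stat6_KO libraries, 5, 15 and 13 in Il21e_KO and 11, 9 and 19 in WT. The exon 16 peak held 41, 33 and 25 reads in Stat6_KO, against 2, 11 and 14 in Il21e_KO and 9, 12 and 17 in WT. The peak at the transcription start site (TSS) held 113, 107 and 112 reads in Stat6_KO, 75, 108 and 113 in Il21e_KO and 137, 92 and 88 in WT. The library Il21e_KO 1 stood apart: it had the fewest reads, no read in 27200 listed peaks (3898 to 12916 in the others) and 42.7% of its reads at TSS peaks (31.6% to 36.4% in the others). WT 1 and WT 2 came next in both measures, with 11963 and 12916 peaks without a read and 36.4% and 35.6% of reads at TSS peaks, where the 6 libraries left had 3898 to 6749 such peaks and 31.6% to 33.3%. Il21e_KO 1 was the highest of the 9 libraries in 26.9% and the lowest in 32.1% of the tested member peaks, much as over all tested peaks (24.8% and 34.3%). Where a difference rests mainly on Il21e_KO 1, it is given with and without that library. All 11 markers of T cells and naive CD4+ cells, a list that includes Ccr7, had a TSS peak, with a summed level of 19.8 to 21.0 CPM per kb of peak in Stat6_KO, 21.0 to 27.5 in Il21e_KO and 20.7 to 24.3 in WT. For 6 B cell markers it was 7.89 to 8.50, 2.97 to 6.09 and 2.86 to 10.5 CPM per kb in Stat6_KO, Il21e_KO and WT. The myeloid markers other than Lyz2 and Csf1r, which lacked a listed TSS peak, reached 17.9 to 20.1, 14.1 to 23.7 and 18.8 to 23.4 CPM per kb in these groups. These ranges overlapped those of the T cell markers in every group, so the TSS levels do not set these lists apart. The median of all 14608 TSS peaks, each averaged over the libraries, was 21.6 CPM per kb. Lyz2 and the erythroid markers Hba-a1 and Hbb-b1 had no listed peak at all, and these levels cover listed peaks only. For the endothelial and stromal markers, of which 1 of 5 had a TSS peak, that peak was at 3.41 to 8.86 in Stat6_KO, 1.83 to 6.43 in Il21e_KO and 9.03 to 14.2 CPM per kb in WT. WT lay above both knockouts at this 1 peak, that of Pdgfrb, but only just above Stat6_KO (lowest WT library 9.03, highest Stat6_KO library 8.86). Over all listed peaks of these markers the ranges of Stat6_KO and WT overlapped (15.2 to 16.3 and 14.8 to 15.7). Il21e_KO was lower there, at 11.4 to 14.6. Over all listed peaks the 5 NK cell markers were at 14.5 to 16.3 in Stat6_KO, 13.2 to 19.1 in Il21e_KO and 16.5 to 18.4 CPM per kb in WT, so WT lay above Stat6_KO. The 2 CD8 markers were at 14.04 to 16.9, 14.3 to 15.1 and 16.5 to 18.0 CPM per kb in Stat6_KO, Il21e_KO and WT, with WT above Il21e_KO. The 4 regulatory T cell markers were at 13.8 to 14.8, 13.8 to 15.5 and 14.97 to 16.9 CPM per kb in these groups, with WT above Stat6_KO. At TSS peaks alone, which Klrb1c, Cd8a and Foxp3 lacked, each of these separations was lost. For NK cells the highest Stat6_KO library was at 15.15 and the lowest WT library at 14.41 CPM per kb. For CD8 the highest Il21e_KO library was at 31.6 and the lowest WT library at 28.9. For regulatory T cells Stat6_KO was at 24.4 to 25.1 and WT at 21.5 to 25.9. The part of other cell types in the results below was not tested. In bulk libraries a smaller share of cells with an open site and a lower opening per cell cannot be told apart.

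All 6 genes had a peak at their start and several more around it. Ccr7 had 46 peaks, Itga4 27, Itgal 26, Itgb2 20, Cxcr4 19 and Itgb7 10, against a median of 7 over all genes counted by the same rule. Summed over its peaks, Ccr7 held a mean of 602 CPM, which ranked 28 among the 16129 genes. Cxcr4 followed with 237 CPM, Itga4 with 207, Itgb2 with 191, Itgal with 147 and Itgb7 with 144, where the median gene had 54.0 CPM. These sums grow with the length covered, 26.3 kb at Ccr7 and 6.82 kb at Itgb7, so genes are compared below per kb.

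Per kb of listed peak the order of the means over 9 libraries was Ccr7 at 22.9 ± 1.52 CPM per kb (SD), Itgb7 at 21.1 ± 1.41, Cxcr4 at 19.1 ± 1.72, Itgb2 at 16.8 ± 0.735, Itga4 at 15.05 ± 0.735 and Itgal at 12.2 ± 0.511. The level of Ccr7 was above that of Itgb7 in 8 of 9 libraries, and Itgb7 was above Cxcr4 in 7, but the ranges of both pairs overlapped. Cxcr4 exceeded Itgb2 in 8 libraries and Itgb2 exceeded Itga4 in 9 of 9, again with overlapping ranges. Only Itga4 and Itgal, the alpha chains of the integrins, were separated as neighbours in this order: the lowest library of Itga4 was at 13.9 and the highest of Itgal at 12.9 CPM per kb. A level per kb also averages over weak listed peaks. Of the listed peaks 18 of 26 at Itgal, 15 of 27 at Itga4 and 14 of 46 at Ccr7 had too few reads for the tests below. Their part in the order was not tested.

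**Figure D1:**
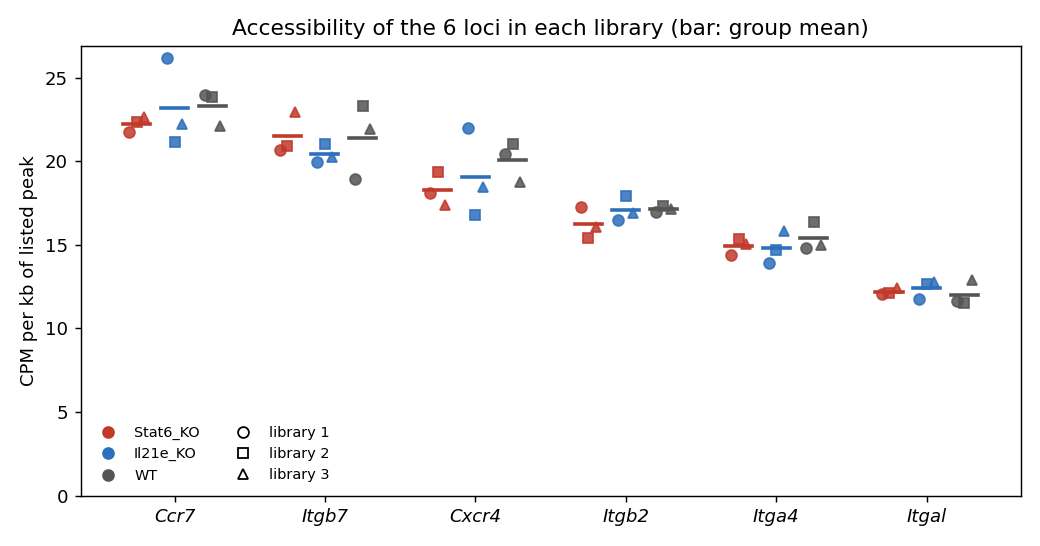
Accessibility of each locus as CPM per kb of listed peak (vertical axis, linear from 0) in each of the 9 libraries. Symbols give the library number, colours the genotype and bars the group mean. The 3 genotypes lie over one another at each gene, while the genes step down from Ccr7 at 22.9 to Itgal at 12.2 CPM per kb, and Il21e_KO 1 is the top point at Ccr7 and Cxcr4.

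The start sites gave another order. The TSS peak of Itgb2 averaged 30.8 ± 3.41 CPM per kb over the 9 libraries (SD), that of Itgb7 29.3 ± 3.94, Itgal 24.3 ± 3.20, Itga4 23.2 ± 4.96, Cxcr4 20.4 ± 4.71 and Ccr7 19.6 ± 6.69. Ccr7 was thus first of the 6 by its whole locus and last by its start, although neighbours in this order all overlapped. Its TSS peak stood above 38.9% of the TSS peaks of the table per kb, whereas those of Itgb2 and Itgb7 stood above 96.0% and 92.6%. The order depends on peak width, which was 841 bp at Itgb2 and 2583 bp at Cxcr4. By CPM not divided by width, the Itgb2 peak (25.9 CPM) stood above only 56.9% of TSS peaks. The Cxcr4 peak (52.8 CPM) stood above 95.6% by CPM and 43.3% per kb. Ccr7 was low by CPM as well, above 34.0%, and Itgb7 high, above 92.7%.

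The place of the open chromatin differed between the loci. At Ccr7 the TSS peak held 2.93% of the summed CPM, the 12 other peaks inside the gene 24.2%, the 16 upstream peaks 33.9% and the 17 downstream peaks 39.0%. The highest Ccr7 peak lay 23.2 kb from the start on the downstream side (chr11:98991836-98993241, mm9, as listed in the table). It held 50.01, 51.2 and 48.9 CPM in Stat6_KO, 40.02, 47.3 and 50.5 in Il21e_KO and 48.3, 49.8 and 36.8 in WT. At Cxcr4 the only peak assigned to the gene by symbol was the TSS peak, which is 2583 bp wide and held 22.2% of the CPM. The 12 upstream peaks held 49.8%, and the 3 with the highest CPM lay between 9.9 and 22.2 kb before the start. Itgal had 45.7% upstream and 20.8% in 13 interior peaks, which at 5.87 CPM per kb were the lowest class at any of these loci. Itga4 had 43.2% in 18 interior peaks, most of it in intron 2, as the table names it. Itgb2 had 47.2% in 7 interior peaks, and Itgb7 had the largest TSS share, 32.7%. Intergenic peaks were assigned by distance alone, so a peak near 2 genes may belong to neither or to both.

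**Figure D2:**
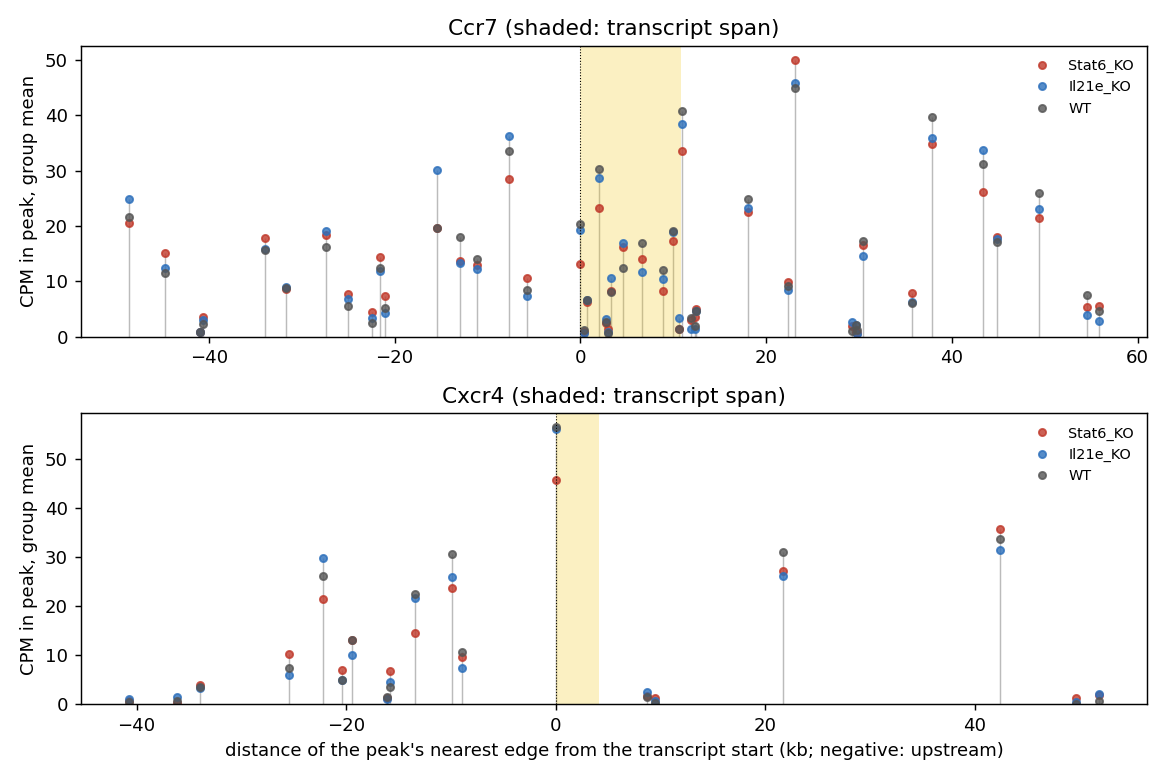
Mean CPM of every listed peak (vertical axis, linear from 0) at Ccr7 (top) and Cxcr4 (bottom) against the distance of its nearest edge from the transcript start in kb, negative upstream; the shaded band is the transcript and the points are group means of 3 libraries. Ccr7 has its highest peak 23.2 kb into the downstream side, Cxcr4 at its start, and the 3 genotypes give the same layout at both loci.

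RefSeq promoter windows were matched for 3 of the 6 genes, Cxcr4, Itga4 and Itgb7, and are shown because the highest peak of each of these genes lies over its start. They come from the build GRCm38.p6, whose coordinates differ from those of the mm9 peaks. Each line gives the 250 bases before the transcript start, 5′ to 3′ on the gene's strand. Capitals mark the motif CCNCNCCC, the CACC-type site of Krüppel-like factors, on either strand. KLF2, a factor of this family, is known in naive T cells for driving L-selectin and S1pr1.
Cxcr4, chr1:128592300-128592549, minus strand: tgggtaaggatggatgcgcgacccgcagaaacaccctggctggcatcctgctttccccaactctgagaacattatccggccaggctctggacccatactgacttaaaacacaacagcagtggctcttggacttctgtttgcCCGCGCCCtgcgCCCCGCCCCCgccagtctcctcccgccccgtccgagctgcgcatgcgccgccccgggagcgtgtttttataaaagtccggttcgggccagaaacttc
Itga4, chr2:79255176-79255425, plus strand: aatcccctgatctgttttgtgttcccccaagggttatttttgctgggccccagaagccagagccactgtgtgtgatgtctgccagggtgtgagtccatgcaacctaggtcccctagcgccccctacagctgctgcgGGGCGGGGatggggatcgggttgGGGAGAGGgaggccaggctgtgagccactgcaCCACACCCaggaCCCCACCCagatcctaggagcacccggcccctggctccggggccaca
Itgb7, chr15:102231936-102232185, minus strand: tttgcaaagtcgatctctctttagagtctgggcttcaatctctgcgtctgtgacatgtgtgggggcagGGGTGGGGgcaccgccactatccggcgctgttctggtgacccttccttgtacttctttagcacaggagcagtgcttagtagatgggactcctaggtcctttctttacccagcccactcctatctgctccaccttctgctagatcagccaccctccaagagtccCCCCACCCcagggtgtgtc

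Matches at Cxcr4 began at positions -109, -97 and -95, counted back from the transcript start, and the last pair overlap. Itga4 had matches at -59 and -47 on its own strand and at -114 and -91 on the other, with 1 more at position 7 beyond the printed bases, and Itgb7 at -19 on its own strand and at -182 on the other. The motif is common: 49.5% of the 32817 promoter windows of the same table, each reaching 250 bases before and 50 after a start, hold it. Motifs for STAT factors (TTCNNNGAA, in 8.29% of all windows), for STAT6 (TTC and GAA with 4 free bases between them, 6.94%), for FOXO (GTAAACA, 3.65%), for RUNX (TGTGGTT, 5.27%) and for ETS factors (CCGGAA, 14.9%) were searched on both strands and had no match in these 3 windows. A match describes the letters of the window and is no evidence of binding.

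The comparison of Stat6_KO with WT asked whether loss of STAT6 changes these loci before any activation. Peaks were tested with limma on log2(CPM + 1), 1 fit over the table, at a false discovery rate (FDR) of 0.05 after Benjamini-Hochberg adjustment. Of the 148 member peaks 78 had enough reads to test: 32 at Ccr7, 12 at Itga4, 11 each at Cxcr4 and Itgb2, 8 at Itgal and 4 at Itgb7. The other 70 averaged between 0.641 and 5.07 CPM. In Stat6_KO against WT, 0 of 78 member peaks passed, where 0.0104% of all 48287 tested peaks did, and 0 of 6 genes passed on their summed peaks, where 0.0131% of 15250 genes did. Leaving out Il21e_KO 1 again gave 0 of 78 peaks and 0 of 6 genes, where 0.126% of peaks and 0.485% of genes passed. At an unadjusted p under 0.05 there were 3 of 78 member peaks (3.85%), against 3.29% of all tested peaks.

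The sum of Cxcr4 was 224, 240 and 215 CPM in Stat6_KO, against 253, 261 and 233 CPM in WT. The highest Stat6_KO library lay above the lowest WT library, so the groups overlapped, and the log2 fold change was -0.13 ± 0.09 (SE; adjusted p = 1.00 by limma). Its 95% interval reached from 20.0% lower to 3.75% higher. Leaving out Il21e_KO 1 narrows the shared spread and cannot change this estimate, which does not use it. The interval was then 16.2% to 0.997% lower (unadjusted p = 0.0289, adjusted p = 0.360, limma, n = 3 per group). Ccr7 had 572, 586 and 594 CPM in Stat6_KO and 628, 627 and 581 in WT, a log2 difference of -0.07 ± 0.07 with overlapping groups. Over the 9 libraries the 3 highest sums of either gene were those of Il21e_KO 1, WT 1 and WT 2, the 3 libraries with the most peaks without a read and the highest shares at TSS peaks, and the part of these library differences in the sums was not tested. Both chains of LFA-1 overlapped between the groups: Itgal had 145, 146 and 150 CPM in Stat6_KO and 140, 139 and 155 in WT (0.02 ± 0.07), and Itgb2 had 197, 175 and 183 CPM in Stat6_KO and 193, 197 and 195 in WT (-0.08 ± 0.07). Likewise Itga4 held 198, 211 and 207 CPM in Stat6_KO and 204, 225 and 206 in WT (-0.04 ± 0.07). For Itgb7 the values were 141, 142 and 157 CPM in Stat6_KO and 129, 159 and 150 in WT (0.01 ± 0.09). Groups overlapped at all 6 genes. Taken over the 6 genes, the 95% intervals ran from 20.0% lower to 14.5% higher in Stat6_KO, with all libraries, so larger changes of a whole locus fall outside them, while changes of single peaks are bounded less tightly.

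**Figure D3:**
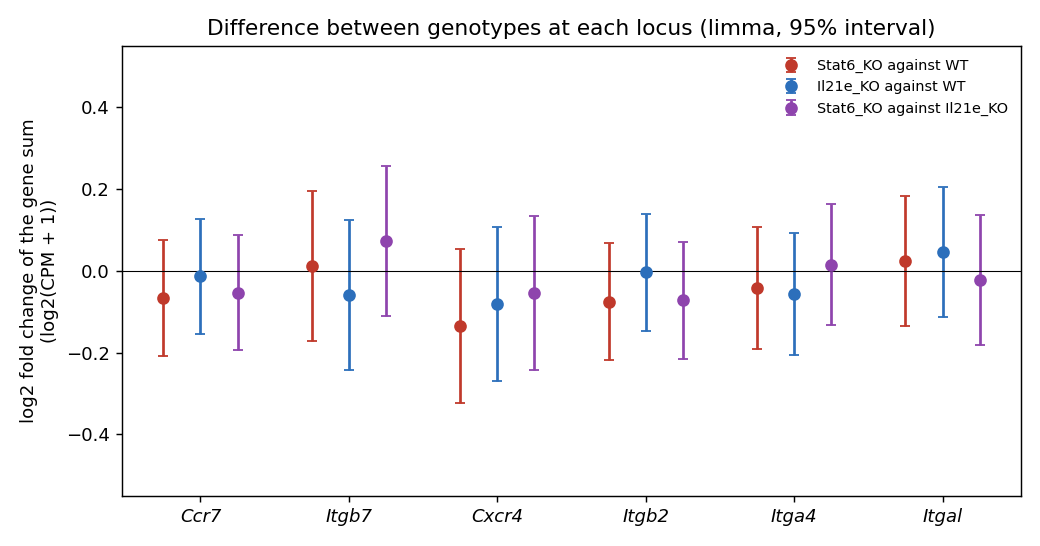
Log2 fold change of the summed CPM of each gene (vertical axis; the log2(CPM + 1) scale) for the 3 comparisons, with points at the estimate and bars at the 95% interval of the limma fit over 9 libraries. Every interval includes 0; the estimate farthest from 0 is that of Cxcr4 in Stat6_KO against WT, -0.13.

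Single peaks of Stat6_KO and WT were closest to the threshold at Cxcr4, Ccr7 and Itga4. A peak 13.4 kb upstream of Cxcr4 (chr1:130502268-130503036) held 17.0, 14.7 and 11.6 CPM in Stat6_KO, against 22.0, 24.9 and 20.6 in WT. The 2 groups did not overlap, the log2 fold change was -0.62 ± 0.25 and the unadjusted p was 0.0241 (limma, n = 3 per group; adjusted p = 1.00). A second upstream peak at 9.9 kb (chr1:130498777-130499806) had 22.7, 25.3 and 23.2 CPM in Stat6_KO and 34.3, 28.0 and 29.7 in WT, -0.35 ± 0.18. The Cxcr4 TSS peak (chr1:130487334-130489917) held 46.0, 42.4 and 48.9 CPM in Stat6_KO, 80.0, 43.5 and 44.9 in Il21e_KO and 58.7, 61.5 and 49.0 in WT. Its lowest WT library lay just above its highest Stat6_KO library, and the difference of -0.29 ± 0.20 did not pass (adjusted p = 1.00 by limma). The 3 highest libraries at this peak were Il21e_KO 1, WT 2 and WT 1. They also had the highest shares of reads at TSS peaks (42.7%, 35.6% and 36.4%), and the part of these shares in the difference was not tested.

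The Ccr7 TSS peak (chr11:99015954-99016855) had 11.4, 13.5 and 14.7 CPM in Stat6_KO, 30.5, 11.97 and 15.5 in Il21e_KO and 20.8, 21.0 and 19.3 in WT. All Stat6_KO libraries were below all WT libraries, with a log2 fold change of -0.60 ± 0.26 and an unadjusted p of 0.0362 (limma, n = 3 per group; adjusted p = 1.00). Of the Ccr7 reads it took 1.99%, 2.31% and 2.47% in Stat6_KO and 3.31%, 3.35% and 3.33% in WT. Its 3 highest libraries by CPM were likewise Il21e_KO 1, WT 2 and WT 1, those with the highest shares of reads at TSS peaks. A peak in intron 2 of Itga4 (chr2:79099559-79100429) held 21.0, 28.3 and 25.7 CPM in Stat6_KO, against 31.2, 33.5 and 34.8 in WT, a difference of -0.40 ± 0.18 (unadjusted p = 0.0375, limma; adjusted p = 1.00) with separated groups. In the other direction stood a weak peak 16.8 kb upstream of Itga4 (chr2:79078359-79078735), with 7.96, 5.30 and 4.89 CPM in Stat6_KO and 4.28, 4.67 and 0.645 in WT, 0.92 ± 0.49. Its lowest WT value was 1 read. Leaving out Il21e_KO 1 narrows the shared spread but cannot change these estimates, which do not use it. In that fit their lowest adjusted p was 0.196 by limma, at the Cxcr4 peak at 13.4 kb.

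**Figure D4:**
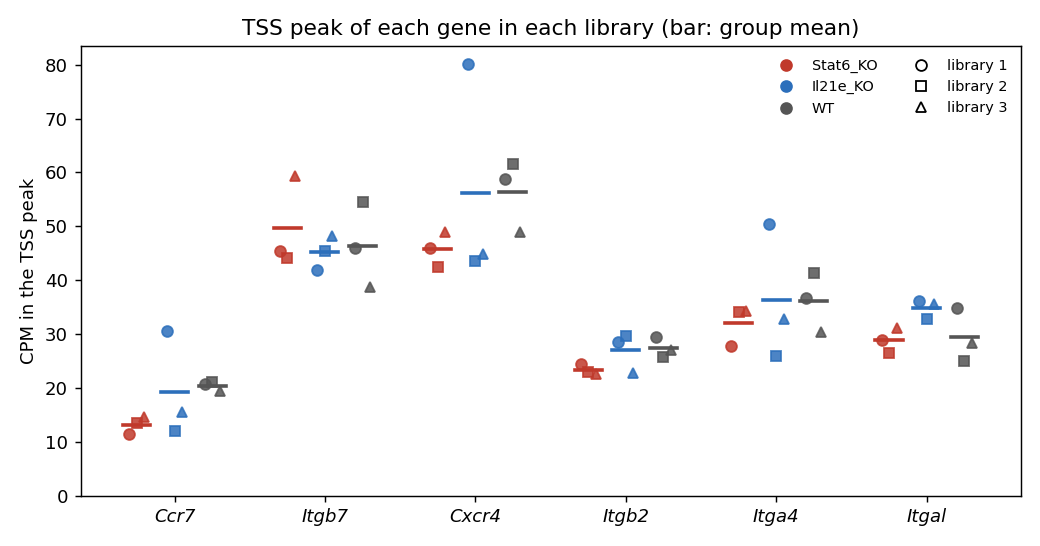
CPM in the TSS peak of each gene (vertical axis, linear from 0) in every library, with symbols for the library number, colours for the genotype and bars at group means. At Ccr7 the Stat6_KO libraries, 11.4 to 14.7 CPM, sit below the WT libraries, 19.3 to 21.0, and Il21e_KO 1 is the highest library at Ccr7, Cxcr4 and Itga4 and, at 36.2 CPM against 35.5 in Il21e_KO 3, at Itgal.

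At the remaining start sites Itgb2 (chr10:76992621-76993462) had 24.4, 23.0 and 22.6 CPM in Stat6_KO, 28.6, 29.6 and 22.7 in Il21e_KO and 29.4, 25.7 and 27.1 in WT. The Stat6_KO libraries were below the WT libraries here too, by -0.22 ± 0.17 on the log2 scale, which did not pass. The TSS peak of Itgal (chr7:134439225-134440502) had 29.0, 26.5 and 31.2 CPM in Stat6_KO, 36.2, 32.8 and 35.5 in Il21e_KO and 34.9, 24.9 and 28.4 in WT. That of Itga4 (chr2:79094728-79096233) held 27.8, 34.1 and 34.3 CPM in Stat6_KO, 50.5, 25.8 and 32.7 in Il21e_KO and 36.7, 41.3 and 30.3 in WT. Stat6_KO overlapped WT at both. Itgb7 (chr15:102061186-102062790) was at 45.5, 44.2 and 59.3 CPM in Stat6_KO, 41.9, 45.4 and 48.3 in Il21e_KO and 45.9, 54.5 and 38.7 in WT, with all 3 groups overlapping. The highest Itgb2 peak (chr10:76999465-77001050), inside the gene 6.4 kb from its start, had 39.2, 35.9 and 36.1 CPM in Stat6_KO, 59.1, 39.1 and 35.0 in Il21e_KO and 42.2, 47.5 and 34.2 in WT, again overlapping.

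Counted over all tested member peaks, the Stat6_KO libraries all lay below the WT libraries in 11 of 78 peaks (14.1%), against 6.89% of all tested peaks, and all above them in 3 (3.85%), against 6.31%. The 11 lower peaks were 4 at Ccr7, 4 at Cxcr4 and 1 each at Itga4, Itgal and Itgb2. These peaks share loci and libraries, so they are not 11 independent observations, and none passed the adjusted threshold. The median log2 fold change of the 78 peaks was -0.05, with 46 below 0, and that of all tested peaks was 0.00. By gene the median was -0.19 at Cxcr4, -0.10 at Itgb2, -0.04 at Ccr7 and Itgal, 0.02 at Itgb7 and 0.06 at Itga4.

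In Il21e_KO against WT, which asked the same of the Il21e allele, 0 of 78 member peaks and 0 of 6 genes passed. Over all tested features 0% of peaks and 0% of genes passed. Without Il21e_KO 1 the member counts were again 0 of 78 and 0 of 6, with 0.00414% of all peaks and 0.223% of all genes passing. At an unadjusted p under 0.05 there was 1 member peak (1.28%), against 3.52% of tested peaks. All Il21e_KO libraries were above all WT libraries in 1 member peak (1.28%, against 2.84% of all tested peaks) and below them in 3 (3.85%, against 4.44%).

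The summed CPM of Ccr7 was 687, 555 and 583 in Il21e_KO, against 628, 627 and 581 in WT. Il21e_KO 1 was the highest of these libraries and Il21e_KO 2 the lowest. The log2 fold change was -0.01 ± 0.07, and -0.10 ± 0.04 without Il21e_KO 1 (adjusted p = 0.477 by limma). Cxcr4 had the same pattern, with 273, 208 and 229 CPM in Il21e_KO and 253, 261 and 233 in WT. Its difference was -0.08 ± 0.09 with all libraries and -0.19 ± 0.07 without Il21e_KO 1 (adjusted p = 0.384 by limma). Without it the 95% intervals were 12.5% to 1.07% lower for Ccr7 and 20.0% to 3.60% lower for Cxcr4. The integrin sums were 142, 152 and 154 CPM for Itgal, 192, 202 and 217 for Itga4, 188, 204 and 192 for Itgb2 and 136, 144 and 138 for Itgb7 in Il21e_KO. Against the WT sums given above these are log2 differences of 0.05 ± 0.07, -0.06 ± 0.07, 0.00 ± 0.07 and -0.06 ± 0.09 for Itgal, Itga4, Itgb2 and Itgb7, and 0.08, -0.01, 0.02 and -0.04 for these genes without Il21e_KO 1. The 95% intervals of the 6 genes together ran from 17.0% lower to 15.3% higher, with all libraries.

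The 5 member peaks with the smallest p in this comparison all belonged to Ccr7. The first (chr11:98961531-98961871) lay 54.5 kb from the start and held 0, 3.15 and 8.88 CPM in Il21e_KO, 5.11, 5.30 and 5.50 in Stat6_KO and 6.73, 7.01 and 9.03 in WT. The groups overlapped and the log2 fold change was -1.31 ± 0.59 (unadjusted p = 0.0411, limma; adjusted p = 1.00). The library at 0 is Il21e_KO 1, where a count of 0 allows up to 2.86 CPM (3 reads). Without it the difference was -0.41 ± 0.35. A peak 6.7 kb inside the gene (chr11:99009055-99009700) had 12.4, 12.6 and 9.99 CPM in Il21e_KO and 18.4, 21.0 and 11.6 in WT, -0.48 ± 0.23. The peak 12.9 kb upstream (chr11:99029337-99029926) had 19.1, 10.7 and 9.99 CPM in Il21e_KO and 19.6, 17.1 and 17.4 in WT, -0.47 ± 0.23. Its value without Il21e_KO 1 was -0.74 ± 0.21, the member peak closest to the threshold there (adjusted p = 0.462 by limma).

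A peak 15.4 kb upstream of Ccr7 (chr11:99031813-99033001) stood at 47.6, 20.2 and 22.7 CPM in Il21e_KO and 22.0, 23.4 and 13.5 in WT. This is 0.53 ± 0.29 on the log2 scale, and 0.16 ± 0.21 without Il21e_KO 1, the highest library. The last of the 5, 4.6 kb inside the gene (chr11:99011189-99011823), had 21.0, 12.6 and 17.2 CPM in Il21e_KO and 13.5, 14.01 and 9.67 in WT, 0.41 ± 0.22, and 0.25 ± 0.22 without Il21e_KO 1. At the start sites the difference of Il21e_KO from WT also depended on this library. The Ccr7 TSS peak gave -0.18 ± 0.26 with it and -0.55 ± 0.21 without it, and the Cxcr4 TSS peak -0.06 ± 0.20 with it and -0.34 ± 0.14 without it. Neither passed in either fit (adjusted p = 0.620 and 0.648 by limma without it). Since both knockouts are set against the same 3 WT libraries, their differences from WT at these peaks are not independent.

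**Figure D5:**
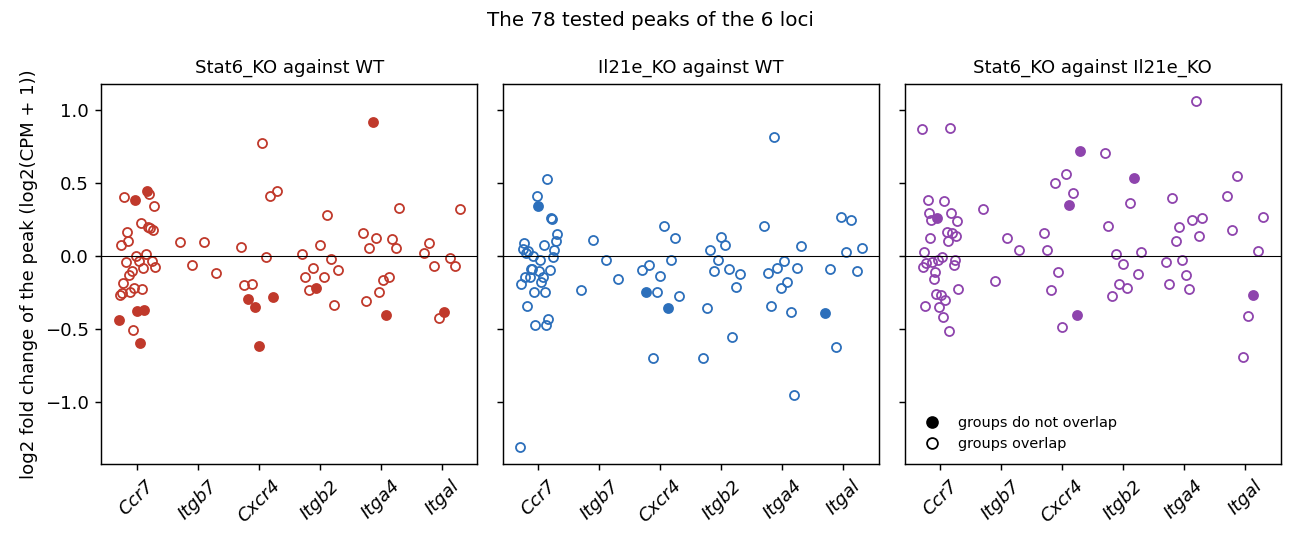
Log2 fold change (vertical axis; the log2(CPM + 1) scale) of each of the 78 tested member peaks in the 3 comparisons, arranged by gene and, within a gene, by position; filled points are peaks whose 2 groups of 3 libraries do not overlap. In Stat6_KO against WT 11 filled points lie below 0 and 3 above it, and no peak passed the adjusted threshold in any comparison.

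Stat6_KO set directly against Il21e_KO gave 0 of 78 member peaks and 0 of 6 genes, where 0.0104% of peaks and 0.0197% of genes passed over all that were tested. Without Il21e_KO 1 the counts were 0 of 78 and 0 of 6, with 0.0352% of all peaks and 0.0525% of all genes. At an unadjusted p under 0.05 there was 1 member peak (1.28%), against 5.68% of tested peaks. Groups did not overlap in 4 peaks higher in Stat6_KO (5.13%, against 6.45%) and 2 lower (2.56%, against 4.59%). Log2 differences of the gene sums were -0.05 ± 0.07 at Ccr7, -0.05 ± 0.09 at Cxcr4, -0.02 ± 0.07 at Itgal, 0.02 ± 0.07 at Itga4, -0.07 ± 0.07 at Itgb2 and 0.07 ± 0.09 at Itgb7. Their 95% intervals together ran from 15.4% lower to 19.4% higher in Stat6_KO. Leaving out Il21e_KO 1 moved Ccr7 to 0.04, Cxcr4 to 0.05 and Itga4 to -0.03, the other side of 0 in each case.

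The member peak with the smallest p there lay 25.4 kb upstream of Cxcr4 (chr1:130514306-130514702). It held 10.2, 11.8 and 8.56 CPM in Stat6_KO, against 3.81, 6.30 and 7.77 in Il21e_KO, and 5.51, 9.34 and 7.09 in WT. The Stat6_KO and Il21e_KO libraries did not overlap, and the log2 fold change was 0.72 ± 0.30 (unadjusted p = 0.0298, limma; adjusted p = 0.780), or 0.47 ± 0.29 without Il21e_KO 1. A peak 10.5 kb upstream of Itgal (chr7:134428541-134429242) had 18.8, 12.95 and 4.89 CPM in Stat6_KO and 23.8, 15.8 and 15.5 in Il21e_KO, with overlapping groups. The difference was -0.69 ± 0.33, or -0.50 ± 0.28 without Il21e_KO 1. The Cxcr4 peak at 13.4 kb had 32.4, 15.1 and 17.2 CPM in Il21e_KO, beside the Stat6_KO values above, -0.48 ± 0.25 with Il21e_KO 1 and -0.16 ± 0.21 without it.

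A weak peak 21.0 kb upstream of Ccr7 (chr11:99037439-99037982) stood at 9.09, 7.07 and 6.12 CPM in Stat6_KO and 0.953, 6.93 and 4.99 in Il21e_KO, 0.88 ± 0.46. The value 0.953 is a single read of Il21e_KO 1, and without that library the difference was 0.27 ± 0.34. At 22.2 kb upstream of Cxcr4 (chr1:130511038-130512263) the values were 22.7, 21.2 and 20.2 CPM in Stat6_KO and 42.9, 23.3 and 23.3 in Il21e_KO. The groups were separated at -0.41 ± 0.21, which became -0.12 ± 0.18 without Il21e_KO 1.

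Other genes of homing and adhesion were read from 5 lists of 99 genes without the members. Of these 82 had a listed peak, with 1001 peaks in all and 385 tested. In each of the 3 comparisons 0 of the 385 passed, with or without Il21e_KO 1. At an unadjusted p under 0.05 there were 13 (3.38%) in Stat6_KO against WT, 15 (3.90%) in Il21e_KO against WT and 14 (3.64%) in Stat6_KO against Il21e_KO, shares to be read beside 3.29%, 3.52% and 5.68% of all tested peaks. Their median log2 fold changes were 0.01, -0.04 and 0.05 in these comparisons, and 0.00, -0.03 and 0.04 over all tested peaks.

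Among 17 chemokine receptors, of which 13 had a peak and 19 peaks were tested, the TSS peak of Cxcr5, the receptor for B cell follicles, had the smallest p in both comparisons with WT. It held 15.3, 16.5 and 17.7 CPM in Stat6_KO, 15.2, 18.9 and 17.8 in Il21e_KO and 31.8, 23.4 and 21.3 in WT, with log2 fold changes of -0.58 ± 0.20 in Stat6_KO and -0.52 ± 0.20 in Il21e_KO. All libraries of both knockouts were below those of WT, the same 3 in both comparisons, and neither difference passed (adjusted p = 1.00 by limma for each). The TSS peak of Cxcr1, a receptor known from neutrophils, followed at -0.36 ± 0.19 and -0.47 ± 0.19 in these comparisons. Between the knockouts a peak of Cx3cr1, the fractalkine receptor, had 0.82 ± 0.39, or 0.23 ± 0.26 without Il21e_KO 1, and the TSS peak of Cxcr6, the receptor for CXCL16, 0.32 ± 0.22.

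The 22 other integrin subunits all had peaks, 160 in number with 92 tested. The TSS peak of Itgb8, a partner of the alpha V chain, was at 14.2, 8.83 and 11.01 CPM in Stat6_KO, 10.5, 11.3 and 11.7 in Il21e_KO and 15.9, 23.4 and 14.8 in WT, differences of -0.62 ± 0.23 for each knockout. Smaller p values than for most subunits were also found for Itga7, a laminin receptor chain (-0.34 ± 0.18, Stat6_KO against WT), and for an intron 18 peak of Itga9 (-0.85 ± 0.28, Il21e_KO against WT, and -0.45 ± 0.21 without Il21e_KO 1). In Stat6_KO against Il21e_KO they were found for the TSS peak of Itgb4 (0.70 ± 0.27, or 0.28 ± 0.19 without Il21e_KO 1) and for a peak of Itga2, the collagen receptor chain (-0.44 ± 0.19).

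Of 13 selectin, selectin-ligand and egress genes, all with a peak and 49 peaks tested, Foxo1 is the factor known to drive Ccr7, L-selectin and Klf2 in naive T cells. Its intron 1 peak (chr3:52097036-52097803) held 18.2, 20.0 and 19.6 CPM in Stat6_KO, 18.1, 19.5 and 18.3 in Il21e_KO and 14.7, 10.1 and 14.8 in WT. Every knockout library was above every WT library, by 0.53 ± 0.20 in Stat6_KO and 0.49 ± 0.20 in Il21e_KO, without passing. Its TSS peak differed the other way in Stat6_KO, -0.49 ± 0.22, and another intron 1 peak by 0.58 ± 0.29 in Il21e_KO. Between the knockouts a peak of Selplg, which encodes the P-selectin ligand PSGL-1, had -0.71 ± 0.25, or -0.51 ± 0.24 without Il21e_KO 1. One of St3gal4, a sialyltransferase, had 0.76 ± 0.33, or 0.31 ± 0.23 without Il21e_KO 1.

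The 32 genes of integrin activation and chemokine signalling had 707 peaks, 220 of them tested. A peak of Adrbk1, a kinase that desensitises chemokine receptors, was at 18.2, 13.5 and 17.7 CPM in Stat6_KO and 25.1, 26.5 and 25.2 in WT, -0.61 ± 0.20, and the TSS peak of Rapgef6, an activator of RAP proteins, was at 0.83 ± 0.30. In Il21e_KO against WT an intron 1 peak of Cyth1, whose product cytohesin-1 binds the Itgb2 chain, had 34.3, 29.6 and 31.1 CPM in Il21e_KO and 22.6, 21.0 and 20.6 in WT, 0.54 ± 0.17. A peak of Sipa1, which switches RAP off, had -0.68 ± 0.23. Rapgef1 (-0.57 ± 0.19) and Rasa3 (-0.68 ± 0.26, or -0.28 ± 0.17 without Il21e_KO 1) came first between the knockouts. Of 15 ligands made by endothelium and stroma only 5 had a listed peak, and 5 of their 11 peaks were tested. A peak at the end of Jam2, an adhesion molecule of endothelial junctions, was at -0.32 ± 0.23 in Stat6_KO and -0.75 ± 0.23 in Il21e_KO against WT. In Stat6_KO against Il21e_KO it was at 0.42 ± 0.23. Without Il21e_KO 1 the difference was -0.57 ± 0.22 in Il21e_KO against WT and 0.25 ± 0.22 between the knockouts. The other named peaks of this list, the TSS peaks of F11r (0.16 ± 0.21 in Stat6_KO against WT and 0.20 ± 0.21 against Il21e_KO) and of Jam2 (-0.11 ± 0.26 in Il21e_KO against WT, and 0.11 ± 0.24 without Il21e_KO 1), were nearer 0.

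The genes whose summed accessibility varied most like that of a member over the 9 libraries were found among 11712 genes. For Ccr7 they were Vamp2 (Pearson r = 0.98) and Dcun1d2 (0.97), and for Cxcr4 Polr3gl (0.97) and Rnaseh2a (0.96). For Itgal they were Smg1 (0.94) and Cdk17 (0.92), and for Itga4 Pgs1 (0.92) and Abhd16a (0.91). For Itgb2 they were Scaper (0.91) and Pla2g12b (0.90), and for Itgb7 Fscn2 (0.91) and Ccdc38 (0.91). Each is the highest of many correlations over 9 points that share libraries and depth, so the values are descriptions. None of the 12 is a gene of the homing lists.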

How the data were processed

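HOMER, Bowtie 1.3.0 and MACS2 2.0 and the build mm9 are named, without roles, in the submitters' processing notes. The deposited values are CPM per peak, which the authors scaled to each library's reads in the listed peaks. The headers of the gene columns are shifted and were read by content. Within 0.01 read, 100% of the CPM values were whole multiples of 1 step per library. This step was treated as 1 read, although CPM cannot show that it is. Intervals cover the spread between libraries, not what their preparation shares.

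Peaks were kept by filterByExpr of edgeR 4.0.16 (minimum count 10, minimum total 15), which left 48287 peaks and set aside 67440. Genes were tested on their summed peaks where the mean was at least 10 reads. Differences were fitted on log2(CPM + 1) by limma-trend over the 9 libraries together, using limma 3.58.1 in R 4.3.3. P-values were adjusted by Benjamini-Hochberg over all peaks, or all genes, with a threshold of 0.05. Fold changes are on this scale, which understates low peaks, and are given with the SE of the fit. edgeR's quasi-likelihood test and DESeq2 1.42.0 on the recovered reads, TMM scaling, other pseudocounts, no filter, other windows and leaving out each library were alternatives. The fits were also run on simulated counts drawn with the same spread for every library. These hold no library with a profile of its own like Il21e_KO 1, and no result given here rests on them.

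Named peaks are the TSS peak and the highest peak of each gene, the 5 member peaks with the smallest p per comparison and the 2 per list and comparison. Members, lists and rule were chosen with earlier results of these data known. Replicate numbers are not stated to mark a batch.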

Additional observations from a re-analysis of the deposited data

How the results depend on the processing

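No member peak, member gene or list peak passed the threshold in any of the 3 comparisons under any alternative run: all 162 alternative counts were 0, as in the main fits. This covers pseudocounts 0.25 and 5, no filter, TMM scaling, edgeR, DESeq2, fits of 2 groups only and each library left out. A window of 100 kb was run for the member peaks only, and no intergenic peaks for the member peaks and genes only. Over the whole table the peaks called in Stat6_KO against WT ranged more widely: 5 in the main fit, 38 with the 2 groups alone and 61 without Il21e_KO 1. The member peak nearest the threshold in those fits had an adjusted p of 0.244 and 0.196 (limma).

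Deviations from the group means had correlations from -0.186 to 0.249 between same-numbered libraries and -0.302 to 0.242 between the others, and not every same-numbered pair was over 0.1, so the numbers were not taken to pair the libraries. With the replicate block the member counts were again 0 peaks and 0 genes, and the table gave 4 peaks in Stat6_KO against WT.

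None of the gene sums was called, and 11 of their small log2 fold changes changed sign under some alternative, the cause of which was not tested beyond the construction of each. With each library left out in turn, Stat6_KO against WT gave -0.0064 to 0.076 at Itgal, -0.069 to 0.0025 at Itga4 and -0.073 to 0.075 at Itgb7. Il21e_KO against WT gave -0.10 to 0.049 at Ccr7, -0.19 to 0.0069 at Cxcr4, -0.037 to 0.021 at Itgb2 and -0.14 to 0.0035 at Itgb7. Stat6_KO against Il21e_KO gave -0.12 to 0.037 at Ccr7, -0.14 to 0.053 at Cxcr4 and -0.028 to 0.064 at Itga4. TMM scaling gave 0.029 at Ccr7 and 0.039 at Itgb2 in Il21e_KO against WT, and -0.018 at Itga4 in Stat6_KO against Il21e_KO. edgeR and DESeq2 gave 0.0023 and 0.0031 at Itgb2 in Il21e_KO against WT, and -0.012 and -0.0092 at Itga4 in Stat6_KO against Il21e_KO. DESeq2 gave -0.00099 at Itgb7 in Stat6_KO against WT. Without intergenic peaks Itgb7 was at 0.015 in Il21e_KO against WT and -0.0098 in Stat6_KO against Il21e_KO. Depth limits single peaks: the 78 tested member peaks had a median SE of 0.24 on the log2 scale, and 70 peaks were too shallow to test.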
